A study of Homo sapiens with 5 samples.

Results

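Matrix metalloproteinases (MMPs) are zinc-dependent enzymes that cut collagens, laminins and other proteins of the extracellular matrix and of the cell surface. They are made as inactive precursors and are held in check by tissue inhibitors (TIMPs), which sit in the active site, and by RECK, an inhibitor anchored in the cell membrane. Some MMPs are secreted and some are fixed to the membrane, and in carcinomas the balance of enzyme and inhibitor is followed because it bears on invasion through basement membrane.

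The 10 genes described here are the enzymes MMP14, MMP1, MMP2, MMP7 and MMP15, the inhibitors TIMP1, TIMP2, TIMP3 and RECK, and BSG (basigin), which is no inhibitor but a surface glycoprotein first known as an inducer of MMPs. They were chosen by name, with their read counts in these libraries already known, so their levels and trends are given as descriptions, with no p-values. Of 61220 genes with a listed transcript, 26426 had at least 1 read. Of the 10, 9 had at least 1 read and 7 passed the filter of at least 10 reads in at least 2 libraries, as did 13492 genes in all. MMP2, MMP7 and TIMP3 did not pass.

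The libraries came from NCI-H1975 and HCC827, a pair of established human lung adenocarcinoma lines, grown independently to near confluence and given no drug or genetic treatment by the labels. The RNA of each was its preparation numbered replicate 1. RNA of NCI-H1975 carried mix A and RNA of HCC827 mix B of sequins, which are synthetic spike-in transcripts. The pair was combined by RNA mass, and each library is named here by its parts of NCI-H1975 and then of HCC827. The pure NCI-H1975 library is 100:0, the pure HCC827 library is 0:100, and 75:25, 50:50 and 25:75 lie between them. Each ratio had 1 library of PCR-amplified, nanopore-sequenced cDNA made from poly(A) RNA, and all of them drew on the same RNA of each line, so scatter along the series does not cover differences between cultures.

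Library totals ran from 2932250 to 4058751 reads. The 0:100 library had 0 sequin reads although its label names mix B, and sequin reads went from 5475 in 100:0 to 1269 in 25:75. Sequins enter no result here beyond the library totals. Mitochondrial transcripts held 5.64% of reads in 100:0 and 8.85% in 0:100, and the read-weighted mean transcript length was 2579 bases in 100:0 and 2180 in 0:100. The part of these trends in the values below was not tested. All 6 epithelial markers (EPCAM, CDH1, KRT7, KRT8, KRT18 and KRT19) had reads in every library. Their summed level was 5575 CPM (read counts scaled to a common library size) in 100:0 and 15794 in 0:100. EPCAM alone had 376 and 371 CPM. Levels are CPM after TMM scaling, a correction for differences in RNA composition between libraries, unless library totals are named.

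The site that gives the family its name is shown first, since the genes below share it and their reads have to be told apart. Each line gives the coding stretch of the catalytic centre in the canonical GENCODE v44 transcript (bases 948 to 980 of MMP14-201, for example), with the histidine codons that hold the zinc ion in capitals.
MMP14: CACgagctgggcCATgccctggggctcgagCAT
MMP15: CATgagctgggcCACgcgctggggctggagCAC
MMP2: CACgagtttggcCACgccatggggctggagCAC
MMP1: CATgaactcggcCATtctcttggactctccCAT
MMP7: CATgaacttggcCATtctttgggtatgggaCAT
Over these 33 bases MMP15 matched MMP14 at 28 positions, MMP2 at 27, MMP1 at 23 and MMP7 at 22. The likeness did not extend to long shared runs. Of the 31-base words in the canonical transcripts of MMP14, MMP1, MMP7, MMP15, TIMP1, TIMP2, TIMP3, BSG and RECK, 0 occurred in a transcript of another gene. In MMP2, 4.19% of such words occurred in an overlapping gene model, ENSG00000279030. Exact matches of that length therefore do not connect one member to another.

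MMP14, a membrane-anchored collagenase that also activates the precursor of MMP2, was the member with the widest range (ENSG00000157227.14, GRCh38 chromosome 14, 22836560 to 22849041, plus strand). It had 1161 reads in the 100:0 library, 1100 in 75:25, 617 in 50:50, 261 in 25:75 and 0 in 0:100. In CPM these are 342, 255, 158, 91.2 and 0. The values ran in order, and only the library without NCI-H1975 RNA lacked reads. A count of 0 allows up to 3 reads, or 1.12 CPM in that library, so MMP14 was at least 306.6-fold lower in 0:100 than in 100:0 with the 1161 reads taken as exact. The exact 95% interval of 1161 against 0 reads has its lower end at 249-fold. In bulk RNA, fewer expressing cells and less RNA per cell cannot be told apart.

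The mixed libraries show how closely MMP14 followed the mixing ratio. Its level was 74.5% of the 100:0 level at 75:25 (95% exact interval 68.5 to 81.0, counting error only), 46.3% at 50:50 (41.9 to 51.1) and 26.7% at 25:75 (23.2 to 30.5), and each interval held the NCI-H1975 mass share. Scaled by library totals the same levels were 68.5%, 40.2% and 21.4%. The intervals were then 63.0 to 74.4, 36.4 to 44.3 and 18.7 to 24.5, so all 3 lay below the mass share. For comparison, 207 genes, MMP14 among them, were at least 4-fold lower in 0:100 and had at least 100 reads in 100:0. Their medians were 74.6%, 55.9% and 35.3% under TMM scaling and 68.5%, 48.5% and 28.3% under library totals. Their lower quartiles were 69.0%, 50.1% and 29.5% under TMM scaling and 63.4%, 43.4% and 23.7% under library totals. Unlike MMP14, some of these genes, such as COL1A1, kept reads in 0:100, so the mass share alone does not set their level.

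**Figure D1:**
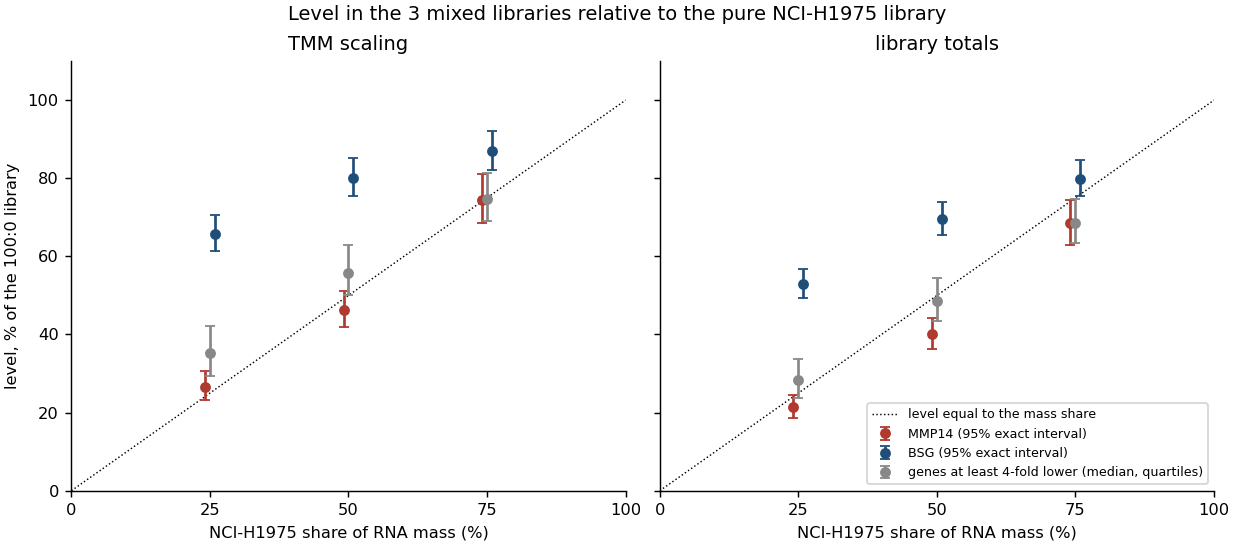
Level of MMP14 (red) and BSG (blue) in the mixed libraries, as a percentage of the level in the 100:0 library, against the NCI-H1975 share of RNA mass in percent, under TMM scaling and under library totals; bars are 95% exact intervals, and grey points are the median and quartiles of genes at least 4-fold lower in 0:100. MMP14 lies on the dotted line of equal share under TMM scaling and below it under library totals. BSG lies above the line in both, but the line is no expectation for BSG, which had 415 CPM in 0:100.

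MMP15, the membrane-anchored relative closest to MMP14 in the stretch above, had a flat profile (ENSG00000102996.5, chromosome 16, 58025754 to 58046901, plus strand). It had 145, 204, 164, 129 and 117 reads from 100:0 to 0:100, or 42.7, 47.3, 42.1, 45.1 and 43.5 CPM. The 95% Poisson intervals of all 5 libraries overlapped. The 0:100 level was 1.02 times the 100:0 level (0.791 to 1.31), so differences beyond 1.31-fold upward or 1.26-fold downward lay outside the interval for counting error. Under library totals the log2 ratio was -0.39 in place of 0.026.

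The 250 bases before the RefSeq start of these genes are given for the pair of membrane-type enzymes that part ways, and for TIMP1 and BSG, which had at least 648 reads in both lines. RefSeq promoters (GRCh38.p14) were matched for 7 of the 10 members, with 2 starts for BSG, of which the downstream one is shown. MMP1, MMP2 and TIMP2 had no entry. Capitals mark matches, on either strand, to 4 motifs. The GC box was searched as GGGCGG. The CCAAT box was searched by those letters. The TATA box was searched as TATAAA. The AP-1 site was searched as TGANTCA. All stretches read in the direction of the gene.
MMP14, chr14:22836335-22836584, plus strand: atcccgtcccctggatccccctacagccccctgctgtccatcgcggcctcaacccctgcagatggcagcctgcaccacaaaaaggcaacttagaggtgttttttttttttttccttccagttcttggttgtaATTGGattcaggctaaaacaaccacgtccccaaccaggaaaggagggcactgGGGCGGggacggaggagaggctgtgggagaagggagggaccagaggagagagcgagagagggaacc
MMP15, chr16:58025504-58025753, plus strand: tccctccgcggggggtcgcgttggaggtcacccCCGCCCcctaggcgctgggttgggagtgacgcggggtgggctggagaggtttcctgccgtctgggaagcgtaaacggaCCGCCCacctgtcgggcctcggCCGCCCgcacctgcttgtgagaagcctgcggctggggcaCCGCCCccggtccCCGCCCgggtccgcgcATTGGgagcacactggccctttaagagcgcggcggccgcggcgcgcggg
TIMP1, chrX:47582186-47582435, plus strand: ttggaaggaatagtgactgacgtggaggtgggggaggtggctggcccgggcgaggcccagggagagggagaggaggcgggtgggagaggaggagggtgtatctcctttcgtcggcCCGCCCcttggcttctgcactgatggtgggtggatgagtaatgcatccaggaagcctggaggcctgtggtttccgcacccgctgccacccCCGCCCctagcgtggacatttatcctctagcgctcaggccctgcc
BSG, chr19:572346-572595, plus strand: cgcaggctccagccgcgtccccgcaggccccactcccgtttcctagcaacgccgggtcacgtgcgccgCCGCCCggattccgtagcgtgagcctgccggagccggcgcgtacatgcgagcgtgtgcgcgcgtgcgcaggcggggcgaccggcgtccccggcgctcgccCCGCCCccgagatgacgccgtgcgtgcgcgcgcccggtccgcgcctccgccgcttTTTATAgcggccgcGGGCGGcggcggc
MMP14 had 1 GC box, beginning 66 bases before the start, and 1 CCAAT match at 118 bases. MMP15 had 5 GC boxes and 1 CCAAT match, and TIMP1 had 2 GC boxes. The BSG window shown had 3 GC boxes and a TATAAA match at 27 bases. The window of the upstream BSG start, at 571283, held 0 matches to the 4 motifs and had a GC content of 56.8%. BSG-204 and BSG-202 are listed as beginning near that start, at 571277 and 571310. The AP-1 letters occurred in 1 of the 7 members with an entry, MMP7, at 67 bases. Of 35116 RefSeq promoter windows of the same length, 42.6% held GGGCGG, 32.0% CCAAT, 10.7% TATAAA and 6.57% TGANTCA. GC content of the windows printed was 56.8% for MMP14, 64.8% for TIMP1, 74.8% for MMP15 and 78.4% for BSG.

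MMP1, the interstitial collagenase, was rare and had 0 reads in the HCC827 library (ENSG00000196611.6, chromosome 11, 102789401 to 102798160, minus strand). It had 24 reads in 100:0, 24 in 75:25, 31 in 50:50, 6 in 25:75 and 0 in 0:100, or 7.07, 5.56, 7.96, 2.10 and 0 CPM. The first 3 libraries overlapped within their counting intervals. At the 3-read floor, with the 24 reads taken as exact, the 0:100 level was at least 6.34-fold below that of 100:0. The exact 95% interval of 24 against 0 reads has its lower end at 4.77-fold. All 85 reads were assigned to the 1 transcript listed for it.

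MMP2 and MMP7 were at the limit of detection in every library. MMP2, gelatinase A and the enzyme that MMP14 activates, had 1, 1, 2, 0 and 0 reads along the series (ENSG00000087245.13, chromosome 16, 55389700 to 55506691, plus strand). MMP7, matrilysin, which in the body is mainly made by epithelial cells, had 1, 0, 0, 2 and 0 (ENSG00000137673.9, chromosome 11, 102520508 to 102530750, minus strand). The highest of these values was 0.699 CPM, and a difference between the lines was not detectable at this depth.

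TIMP2, the inhibitor that bridges MMP14 and the MMP2 precursor on the cell surface, was abundant in both lines (ENSG00000035862.13, chromosome 17, 78852977 to 78925387, minus strand). It had 997, 1468, 1255, 1039 and 936 reads from 100:0 to 0:100, or 294, 340, 322, 363 and 348 CPM. The 100:0 library was the lowest, and the others did not run in order. The 0:100 level was 1.18 times the 100:0 level (95% exact interval 1.08 to 1.30, counting error only). Scaled by library totals, the log2 ratio turned from 0.24 to -0.17.

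TIMP1, a secreted inhibitor of most MMPs, lay within a narrow band (ENSG00000102265.12, chromosome X, 47582408 to 47586789, plus strand). It had 917, 1033, 892, 603 and 648 reads, or 270, 239, 229, 211 and 241 CPM. The highest library was 100:0 and the lowest 25:75, so the values did not run in order. The 0:100 level was 0.892 times that of 100:0 (0.805 to 0.987). Under library totals the log2 ratio moved from -0.17 to -0.58.

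TIMP3, the inhibitor that binds to the matrix itself, had 0 reads in all 5 libraries (ENSG00000100234.12, chromosome 22, 32801705 to 32863041, plus strand). The limit that this allows ran from 0.695 CPM in 75:25 to 1.12 CPM in 0:100. The gene overlaps SYN3 on the opposite strand, and SYN3 had 15 reads. RECK, the membrane-anchored inhibitor (ENSG00000122707.12, chromosome 9, 36036913 to 36124455, plus strand), had 12, 17, 13, 8 and 9 reads, or 3.54, 3.94, 3.34, 2.80 and 3.35 CPM. Its counting intervals overlapped in all libraries, and the ratio of 0:100 to 100:0 was 0.947 (0.352 to 2.45), too wide to place a difference.

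BSG was the member with most reads (ENSG00000172270.22, chromosome 19, 571277 to 583494, plus strand). Basigin chaperones monocarboxylate transporters to the plasma membrane, besides its link to MMP induction. It had 2209, 2442, 2032, 1225 and 1116 reads, or 651, 566, 521, 428 and 415 CPM from 100:0 to 0:100. The values ran in order, although the counting intervals of 75:25 and 50:50 overlapped, as did those of 25:75 and 0:100. The 100:0 level was 1.57 times that of 0:100 (1.46 to 1.69). The log2 ratio of 0:100 to 100:0 was -0.65, and -1.06 under library totals. The mixed libraries lay at 86.9%, 80.1% and 65.8% of the 100:0 level, and the 0:100 level was 0.638 times it. Because HCC827 also had BSG reads, the NCI-H1975 mass share is not the level that mixing alone would give.

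**Figure D2:**
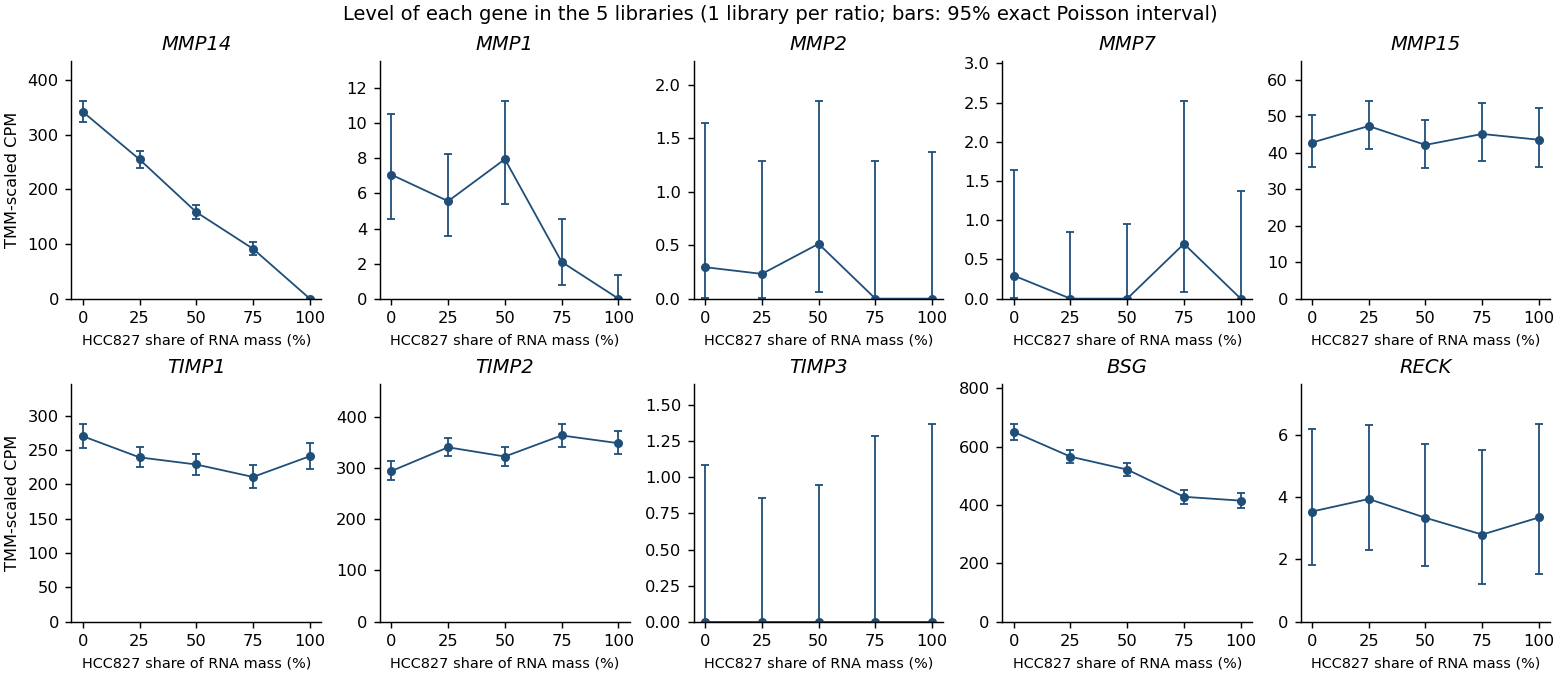
TMM-scaled CPM of each of the 10 genes (y axes, from 0, separate for each gene) against the HCC827 share of RNA mass in percent; each point is 1 library and bars are 95% exact Poisson intervals. MMP14 goes from 342 CPM to 0, MMP1 ends at 0, BSG goes from 651 to 415, and MMP15, TIMP1 and TIMP2 stay within a narrow band.

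In the fit over all genes (edgeR, described with the processing), 3 of the 7 members that could be fitted lay past the 0.05 threshold with a negative slope, where 22.3% of all genes did, and 0 with a positive one, where 23.5% did. They were MMP14, MMP1 and BSG, and with DESeq2's Wald test BSG alone. The members at least 4-fold lower in 0:100 were MMP14 and MMP1, or 2 of 7, against 5.98% of all genes. Of the 5 members with at least 100 reads, 2 ran in order over the libraries, against 31.6% of such genes. Because the members were chosen with these values known, these counts are no test of the members and nothing is read from them, nor from the same counts under other settings. The slopes are log2 changes fitted as a straight line from 100:0 to 0:100. They were -3.95 ± 0.74 (SE) for MMP14, -2.37 ± 0.90 for MMP1, -0.68 ± 0.11 for BSG and -0.27 ± 0.59 for RECK. For TIMP1 the slope was -0.20 ± 0.13, for MMP15 -0.012 ± 0.17 and for TIMP2 0.23 ± 0.12. Where the lines differ widely, a slope can fall short of the ratio of the pure libraries. The log2 ratio of 0:100 to 100:0 for MMP14 was -8.26 with 0 reads taken as 3. The slope of MMP14 was -2.53 without the 0:100 library and that of MMP1 -1.18. Without 75:25 or without 25:75, MMP14 and BSG passed and MMP1 did not, and without 0:100 the 3 were MMP14, TIMP1 and BSG. Under library totals the median slope of all genes was -0.44 in place of -0.035, TIMP1 also passed, TIMP2 had a slope of -0.18, and 26.3% of the genes called were rising ones in place of 51.3%.

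The order of levels among the members turns on whether CPM is divided by transcript length. A read here stands for 1 molecule of PCR-amplified cDNA whatever its length, so CPM needs no division by length. By CPM alone the order in 100:0 was BSG at 651, MMP14 at 342, TIMP2 at 294 and TIMP1 at 270. In 0:100 it was BSG at 415, TIMP2 at 348 and TIMP1 at 241. The counting intervals of TIMP2 and TIMP1 in CPM overlapped in 100:0 and did not in 0:100. Divided by length, TIMP1, the shortest, came first in both, a place that the division itself gave it. In 100:0, TIMP1 had 402 CPM per kilobase and BSG 387, and their counting intervals overlapped. MMP14 followed at 93.9 and TIMP2 at 85.1, whose intervals also overlapped, then MMP15 at 10.5, MMP1 at 3.59 and RECK at 1.38, the last pair again with overlapping intervals. In 0:100 the order per kilobase was TIMP1 at 359, BSG at 247, TIMP2 at 101, MMP15 at 10.7 and RECK at 1.30, and the intervals of neighbours did not overlap on that scale. On both scales MMP15, MMP1 and RECK were the lowest of the 7 fitted members in 100:0. The lengths used are read-weighted means over each gene's transcripts, from 671 bases for TIMP1 to 4062 for MMP15, and rest on how reads were divided among them.

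Transcripts within each gene were compared because the choice of members did not use them. Of MMP14 reads, 97.9% were on MMP14-201, the full-length coding transcript, and 1.21% on the retained-intron transcript MMP14-202. All 759 reads of MMP15 were on MMP15-201. TIMP2 reads were spread almost evenly over TIMP2-201 (30.5%), TIMP2-203 (30.1%) and TIMP2-202 (29.8%), and BSG reads over BSG-203 (17.5%), BSG-204 (17.3%), BSG-202 (17.3%) and BSG-201 (17.2%). TIMP1 reads lay on TIMP1-201 (37.8%), TIMP1-202 (33.2%) and TIMP1-204 (29.0%). These transcripts are alike in GENCODE v44. Of the 31-base words of TIMP1-201, TIMP1-204 and BSG-203, 0% were absent from the other transcripts of the gene that had reads. The value was 1.57% for BSG-201 and 1.33% for TIMP2-203. Among the TIMP1, TIMP2 and BSG transcripts just named it was highest for TIMP2-201, at 11.8%. The share of each such transcript in the cells is therefore uncertain. For MMP14-201 the value was 55.9%. The deposited length of BSG-203 was 1616 bases, against 1598 in GENCODE v44. Its 0% may therefore not hold for the sequence that was counted.

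Isoform usage was tested along the series for the 4 members with at least 2 tested transcripts, MMP14, TIMP1, TIMP2 and BSG. By edgeR diffSpliceDGE with Simes p-values, usage changed in 0 of the 4, against 0.402% of 7455 genes. None had an unadjusted p under 0.05, and 0 of the members with a value passed in any of the 8 alternatives, the gene-level F test included. The unadjusted p-values were 0.742 for TIMP2 and BSG, 0.853 for TIMP1 and 0.935 for MMP14. The retained-intron transcripts of BSG took 13.1% of its reads in 100:0 (95% Wilson interval 11.7 to 14.6) and 11.4% in 0:100 (9.65 to 13.4), and those of TIMP2 1.10% (0.617 to 1.97) and 1.92% (1.22 to 3.02). In simulated data in which 1 transcript moved 4-fold, 64 of 188 genes were recovered among 7148 tested, so a change of that size could be missed.

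**Figure D3:**
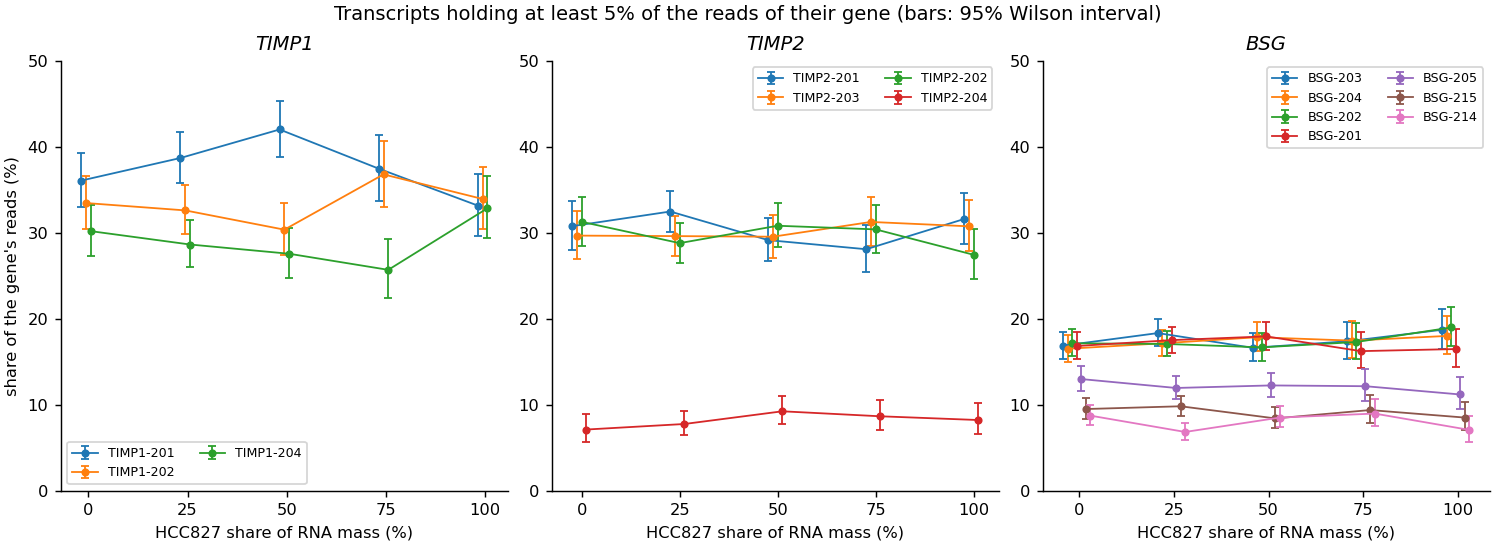
Share of the reads of TIMP1, TIMP2 and BSG (y axes, percent) on each transcript with at least 5% of the gene's reads, against the HCC827 share of RNA mass in percent; points are libraries and bars 95% Wilson intervals. The 3 leading TIMP2 transcripts and the 4 leading BSG transcripts lie close together in every library, and no gene shown had a change that passed the test.

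The rest of the family was then examined. Of the other 18 MMP genes and TIMP4, 12 had at least 1 read and 8 could be tested. Reads on all 23 MMP genes summed to 497 CPM in 100:0, then 394, 288 and 215, and 102 in 0:100. MMP14 held 68.9% of them in 100:0 (95% Wilson interval 66.6 to 71.0), and in 0:100 MMP24 had 129 of the 275 reads and MMP15 117. MMP24 gave 48.0 of the 102 CPM there, and its own value is uncertain because it overlaps MMP24OS. Reads on the 4 TIMP genes summed to 567, 582, 553, 576 and 590 CPM, so under TMM scaling the enzyme total was lowest in 0:100 and the inhibitor total was not. Under library totals both were lowest there: the MMP sum went from 575 to 88.9 CPM, and the TIMP sums were 656, 619, 555, 536 and 513 CPM in order.

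Of these 8 genes, 6 fell and 1 rose by the edgeR test over all genes, against 22.3% and 23.5% of all genes, and the median slope was -2.15 against -0.035. With libraries at 0 set to the 3-read bound, the median log2 ratio of the pure libraries was -2.45 against -0.027. Under library totals 7 of the 8 fell and 1 rose, where 5074 and 1813 of all 13492 genes did. MMP17, a membrane-anchored enzyme, had 41, 41, 22, 7 and 0 reads and a slope of -3.55 ± 0.68 (SE), with adjusted p = 0.00101 by edgeR. MMP13, a collagenase, had 87, 70, 41, 22 and 3 reads and a slope of -3.04 ± 0.43 (adjusted p = 1.12e-04, edgeR). In CPM both ran in the order of the mixture. MMP28, known as epilysin, had 40, 43, 13, 21 and 1 reads and a slope of -2.45 ± 0.73 (adjusted p = 0.0148, edgeR), and it did not pass without the 75:25 or the 0:100 library or under DESeq2.

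The other 3 genes that fell are named outside the rule for named genes. MMP9, gelatinase B, had 87, 81, 79, 40 and 14 reads and a slope of -1.62 ± 0.37. MMP10, a stromelysin, had 23, 27, 17, 8 and 0 reads, and MMP11 had 20, 17, 14, 6 and 4. MMP9 and MMP10 did not pass without the 0:100 library. MMP11 did not pass under DESeq2 or without the 100:0, 25:75 or 0:100 library. TIMP4 had 11, 13, 7, 6 and 2 reads and did not pass (adjusted p = 0.106, edgeR), although it passed and fell under library totals. Without the 0:100 library 3 genes of this list passed. When every library had to hold 10 reads, 2 did: MMP9, which fell, and MMP24, which rose.

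MMP24, a membrane-type enzyme best known from neurons, was the gene that rose. It had 49, 77, 112, 110 and 129 reads, or 14.4, 17.8, 28.7, 38.4 and 48.0 CPM, and its slope was 1.82 ± 0.22 (SE), with adjusted p = 3.08e-05 by edgeR. It overlaps MMP24OS on the opposite strand, which had 277, 357, 309, 290 and 275 reads, or 1508 against 477 of its own, and the sources used here do not give the use of strand, so the value of MMP24 is uncertain.

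MMP1, MMP7, MMP10 and MMP13 lie in 1 cluster on chromosome 11, where 9 MMP genes stand between 102520508 and 102955732. Reads lay on MMP13 (223), MMP1 (85), MMP10 (75), MMP7 (3) and MMP3 (1), and 0 on MMP8, MMP12, MMP20 and MMP27. The 3 with more than a few reads were all lowest in 0:100, with 3 reads for MMP13 and 0 for MMP1 and MMP10.

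**Figure D4:**
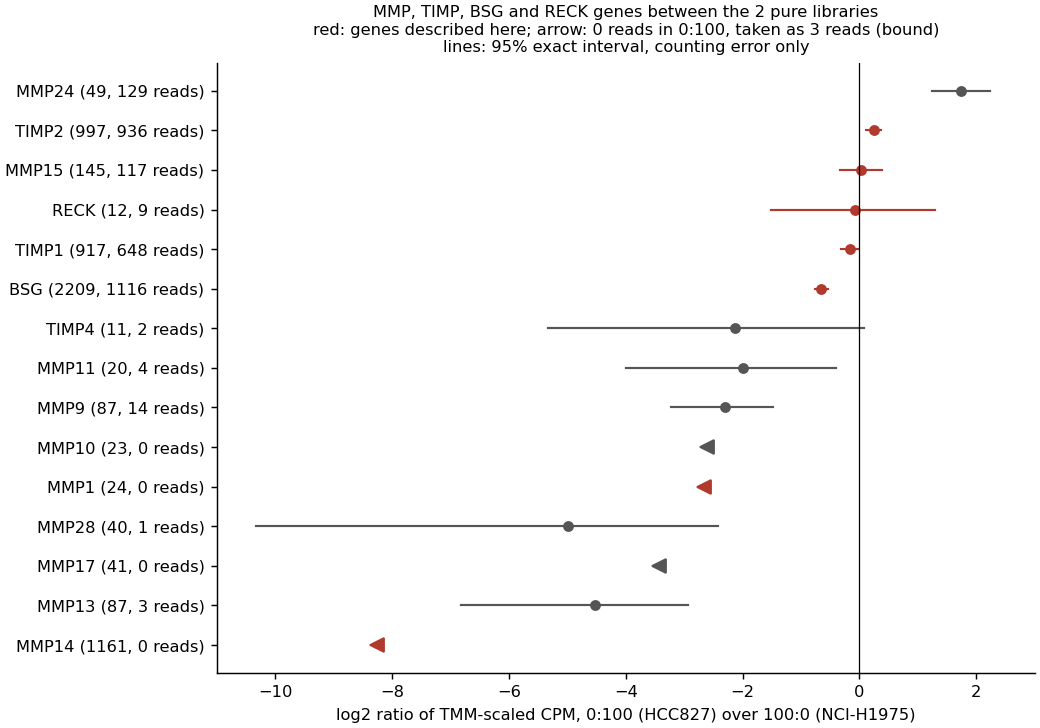
Log2 ratio of TMM-scaled CPM in the 0:100 library over the 100:0 library (x axis) for MMP, TIMP, BSG and RECK genes with at least 10 reads in either (y axis, with reads in 100:0 and 0:100). Lines are 95% exact intervals for counting error and arrows are bounds with 0 reads taken as 3; MMP14 is at the far left, MMP24 is farthest to the right, and TIMP1, TIMP2, MMP15 and RECK lie near 0.

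Genes around the enzymes were taken from lists of adamalysins, activators and partners, basigin partners and matrix substrates. Of 39 adamalysin genes (the ADAM and ADAMTS sheddases and matrix proteases), 10 could be tested. Of these, 3 fell and 2 rose, against 22.3% and 23.5% of all genes. The median slope was -0.74 and the median log2 ratio -0.83. Under library totals 5 fell and 1 rose, where 5074 and 1813 of all 13492 genes did. ADAM10, a main sheddase of surface proteins, went from 58.6 CPM in 100:0 to 28.3 in 0:100 and fell (slope -0.96 ± 0.18 SE, adjusted p = 7.73e-04 by edgeR). ADAM8 and ADAM9 had slopes of -2.04 and -0.59, and ADAM9 overlaps TM2D2 (415 reads) on the opposite strand. ADAM15 had a slope of 0.37 ± 0.12, from 209 to 286 CPM, which turned to -0.033 under library totals, and ADAMTS16, named outside the rule, had 47 reads and a slope of 3.31. Without the 0:100 library 1 gene of this list passed, and ADAM8, ADAM9 and ADAM15 did not. ADAM15 also did not pass without 100:0.

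Of 21 activators and partners, 15 could be tested. Of these, 8 fell and 1 rose, against 22.3% and 23.5% of all genes. The median slope was -0.90 and the median log2 ratio -0.89. Under library totals 12 fell and 1 rose, where 5074 and 1813 of all 13492 genes did. FURIN, the convertase that removes the propeptide of MMP14, did not pass, with 81.9, 83.4, 74.4, 82.8 and 60.6 CPM and a slope of -0.33 ± 0.17 (SE), with adjusted p = 0.121 by edgeR, although it passed without the 25:75 library (slope -0.46) and under library totals (slope -0.74). CD63, a tetraspanin that binds TIMP1, was level at 866, 814, 848, 855 and 864 CPM. ITGB3 (slope -3.00), THBS1, a thrombospondin (-2.88), and SPOCK1, a testican (-2.49), fell. LCN2, which binds MMP9, rose (5 reads in 100:0 and 3835 in 0:100, log2 ratio 9.92, slope 4.73 ± 1.16 SE, adjusted p = 0.00506 by edgeR). It missed the threshold with DESeq2.

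Of 11 basigin partners, 10 could be tested. Of these, 5 fell and 1 rose, against 22.3% and 23.5% of all genes. The median slope was -0.10 and the median log2 ratio -0.12. Under library totals 6 fell and 0 rose, where 5074 and 1813 of all 13492 genes did. SLC16A1, the monocarboxylate transporter that basigin carries to the membrane, went from 116 to 78.5 CPM and fell (slope -0.66 ± 0.16 SE, adjusted p = 0.00445 by edgeR), though not without the 0:100 library. The basigin relatives EMB (embigin) and NPTN (neuroplastin) had slopes of -1.33 and -0.67, and NPTN did not pass without 75:25 or 0:100. PPIA, cyclophilin A, a ligand of basigin, had 2190 CPM in 100:0 and 2310 in 0:100 and did not pass (slope 0.14 ± 0.097 SE, adjusted p = 0.264 by edgeR). ITGA3 rose with a slope of 0.32, but not without 75:25, 50:50 or 0:100. ITGB1 did not pass. Both turned negative under library totals (-0.089 and -0.19). Without the 0:100 library 2 genes of this list passed, and without 75:25 3 did.

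Of 20 matrix substrates, 14 could be tested. Of these, 7 fell and 3 rose, against 22.3% and 23.5% of all genes. The median slope was -0.42 and the median log2 ratio -0.46. Under library totals 9 fell and 2 rose, where 5074 and 1813 of all 13492 genes did. COL1A1, a chain of the fibrillar collagen that MMP1 and MMP14 cut, went from 157 CPM in 100:0 to 7.07 in 0:100 and fell (slope -2.91 ± 0.45 SE, adjusted p = 2.24e-04 by edgeR). Its partner COL1A2 had 96, 91, 56, 13 and 0 reads and COL7A1 130, 150, 107, 32 and 0. COL4A2, a chain of basement membrane collagen, ran the other way with 0, 39, 63, 50 and 79 reads. COL7A1 and COL4A2 missed the threshold with DESeq2. CDH1, the adhesion protein E-cadherin, rose with a slope of 0.63, but not without 100:0, and AGRN and SDC1 did not pass.

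**Figure D5:**
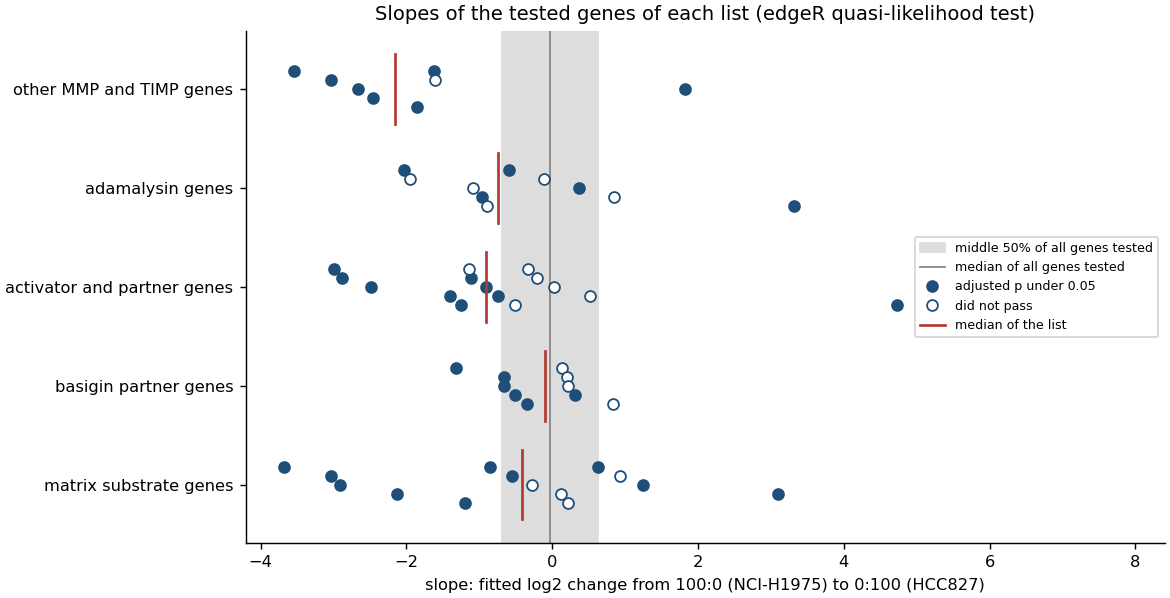
Slope of each tested gene (x axis, fitted log2 change from 100:0 to 0:100) in the 5 lists (rows); filled points passed the threshold, red bars are list medians, and the grey band holds the middle 50% of all 13492 genes tested. The list of other MMP and TIMP genes has a median of -2.15, with MMP24 alone on the right.

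COL1A1 and COL1A2 also stand in the list of fibroblast markers, whose summed level was highest in 100:0 as MMP14 was, with 186 CPM there and 140, 105, 63.3 and 7.44 CPM along the series. COL1A1 and COL1A2 carried it, with 532 and 96 of the 633 reads in 100:0. The part of this in the values of MMP14 was not tested. Reads lay on 5 of its 8 genes in 100:0 and on 2 in 0:100. DCN and THY1 had 0 reads in every library, COL3A1 and PDGFRA had 1 read in all, and LUM had at most 3 in a library. The 4 endothelial markers together had at most 17 reads in a library. Of the 5 leukocyte markers, PTPRC, CD3E and MS4A1 had 0 reads, CD79A had 75 in all and CD68 had 1293. CD68 went from 56.6 CPM in 100:0 to 94.4 in 0:100, and CD79A from 5.89 to 1.49.

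Genes with a pattern most like a member's were found by the share of each gene's summed level that stood in each library, over 5290 genes with at least 500 reads. The distance is the sum of absolute differences in percentage points over the 5 libraries. Nearest to MMP14 were SNRPN (3.09 points), ANPEP (3.13) and IRX3 (3.19). SNRPN had 330, 328, 180, 85 and 0 reads, and ANPEP, the membrane aminopeptidase N, had 215, 202, 121, 52 and 1. Nearest to TIMP2, the member with the highest ratio of 0:100 to 100:0, were CLPTM1L (1.13), FBXL18 (1.33) and ATP5PO (1.71). CLPTM1L had 357, 526, 460, 383 and 342 reads, with 100:0 again below the mixed libraries in CPM. All the points share the same 5 libraries.

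Overlapping genes could touch a few member values. TIMP1 overlaps SYN1 on the opposite strand, which had 13 reads. BSG overlaps BSG-AS1 (79 reads) and TIMP2 overlaps the noncoding gene ENSG00000267601 (82 reads), both on the opposite strand and small beside 9024 and 5695 reads. MMP14, MMP7 and MMP15 overlap no annotated gene.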

How the data were processed

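The authors deposited 1 table per library with transcript identifiers, lengths in bases and estimated counts of reads, unscaled. Per the submitters' processing notes, minimap2 2.24, Salmon 1.9.0 and GRCh38 were used, with no roles given. The annotation release, the settings and the use of strand are not given in the sources used here. The 2 values that were not whole were rounded, and 161 repeated identifiers were summed. Of 227751 human identifiers, 224076 matched GENCODE v44 (98.6% of human reads) and were summed by gene, while library totals kept all reads.

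Slopes, in log2 units per whole step from pure NCI-H1975 to pure HCC827 RNA, came from the edgeR 4.0.16 quasi-likelihood test over all 5 libraries (R 4.3.3). Scaling was by TMM, genes needed 10 reads in 2 libraries, and adjustment was by Benjamini-Hochberg over all genes (threshold 0.05). The SE of a slope was computed as its absolute value over the square root of the test's F statistic, and is approximate. Since no ratio was replicated, p-values measure the spread of single libraries about the trend, which may be technical. The trend is a straight line in log2 units, whereas mixing by RNA mass gives levels that are linear in the share. For genes far apart between the lines, SEs and p-values therefore also hold the misfit of that line. Isoform usage was tested with diffSpliceDGE on transcripts passing the same filter. Intervals are 95% exact Poisson, exact conditional binomial or Wilson. With no molecular identifiers, intervals and limits cover counting error only. On simulated data with 200 changed genes, 192 of which passed the filter among 13157 tested, the slope test recovered 77 of 99 4-fold and 35 of 93 2-fold changes with 6 false calls.

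Alternatives were DESeq2 1.42.0, limma 3.58.1 with voom, other scalings and filters, and leaving out each library. Members and lists were chosen with earlier results of these data known. Named list genes were up to 3 a direction with the largest slope among those past the threshold with at least 100 reads, and up to 2 a list that did not pass with more than 1000 reads. MMP9, MMP10, MMP11, TIMP4 and ADAMTS16 were named after their values were seen. A matrix substrate that the rule names is not reported here. Promoter sequences are from RefSeq (GRCh38.p14), and windows were 250 bases.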

Additional observations from a re-analysis of the deposited data

How the results depend on the processing

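No paired analysis was possible because each ratio had 1 library. The number of genes with a slope stayed within 1.5 times 6175 in all settings but the fit without the 0:100 library; fits that each left out 1 library gave 4067 to 5860. The same fits gave 3 to 7 of the other MMP and TIMP genes (7 reported), 1 to 5 adamalysins (5), 2 to 5 basigin partners (6), 4 to 20 genes with a change of isoform usage (30) and 2 to 3 members with a slope (3). With 10 reads in every library, 2 other MMP and TIMP genes, 3 adamalysins and 1 member passed, since fewer genes could be tested. DESeq2's Wald test gave 1 member, BSG, and the gene-level F test 65 genes for isoform usage; the cause was not tested. Activators, matrix substrates, the members in order along the series and the members with a change of isoform usage kept their counts within 1.5 times.

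Values near 0 changed sign. The slope of MMP15 was 0.0013 under DESeq2 size factors, 0.0033 under DESeq2's Wald test, 0.040 without 75:25 and 0.013 without 0:100 (from -0.11 to 0.040 over fits leaving out 1 library), and its log2 ratio was -0.39 under library totals. Under library totals TIMP2 had a slope of -0.18 and a log2 ratio of -0.17, and slopes were -0.033 for ADAM15, -0.38 for CD63, -0.089 for ITGA3, -0.27 for PPIA, -0.19 for ITGB1 and -0.29 for AGRN. CD63 also gave -0.0027 without a filter, -0.030 with 10 reads in every library, -0.016 without 75:25 and -0.00082 without 0:100 (up to 0.11 over fits leaving out 1 library). The log2 ratio of RECK was 0.073 with a floor of 10 reads. MMP14 and MMP1 were lower with HCC827 in every setting run that gave them a value. The depth leaves MMP2, MMP7 and TIMP3 undetermined.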
